A study of Caenorhabditis elegans with 2 samples.

Results

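The Hsp70 family chaperone genes of Caenorhabditis elegans were examined for chromatin occupancy by SEA-2, a zinc finger protein known from sex determination. The family was taken as 8 named genes of the 19985 protein-coding genes in the annotation: F44E5.4, F44E5.5, hsp-70, hsp-1, hsp-3, hsp-4, hsp-6 and hsp-110. Each gene was given every candidate peak whose summit lay in its body or up to 1000 bp upstream of its start. By this rule the family held 32 of the 82563 candidates in the ranked list of the pooled replicates, and 3 of the 453 peaks in the pooled list that the authors thresholded (the optimal list). The genes were chosen by the deposited peak values themselves, with the signals and thresholded peaks at the family known, so their peak values are a description and carry no test.

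Hsp70 proteins are chaperones that bind exposed stretches of unfolded protein and release them in a cycle driven by ATP. J-domain proteins deliver substrates and speed ATP hydrolysis, and nucleotide exchange factors, among them Hsp110 proteins, restart the cycle. Each compartment has its own Hsp70, and the genes answer to different stress pathways: heat shock factor HSF-1 for cytosolic stress, XBP-1 for unfolded protein in the endoplasmic reticulum (ER), and ATFS-1 for stress in mitochondria.

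The chromatin came from whole young adults of strain OP586, collected at 64 hours after cultures had been synchronised as starved L1 larvae following bleaching. The animals carry the transgene wgIs586, in which sea-2 is fused to TY1, EGFP and 3xFLAG tags beside a functional unc-119 copy, in the unc-119 (tm4063) background, and all samples share this genotype. There was 1 group of 2 biological replicates, with sonicated chromatin precipitated by anti-GFP according to the sample descriptions, although the antibody field reads sea-2. Sequencing depth is unknown for both replicates. The listed possible control was not analysed here, and untagged or stressed animals were not among the samples used. Whole animals mix all tissues, so occupancy in a few cells and weak occupancy in many cells cannot be told apart.

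Sequences under and beside the peaks are shown for the 3 peaks of the family, together with the matching stretch of an ER paralogue without a peak. They come from the WBcel235 reference, which is the ce11 assembly of the peak files. The interval between F44E5.4 and F44E5.5 is printed on the plus strand of chrII:11759337-11759636, with the heat shock pairs TTCNNGAA and GAANNTTC in capitals. The hsp-1 peak is printed within 100 bp of its summit on the plus strand of chrIV:17278467-17278667, where capitals mark GAANNTTC as well as matches to GAGAGA and to CGCGCA on either strand. The 200 bases before the start of hsp-3 (minus strand of chrX:6092125-6092324) and of hsp-4 (minus strand of chrII:7352646-7352845) carry in capitals, on either strand, matches to CCAAT, those to CCACG and those to CGCGCA.
F44E5.4-F44E5.5 interval: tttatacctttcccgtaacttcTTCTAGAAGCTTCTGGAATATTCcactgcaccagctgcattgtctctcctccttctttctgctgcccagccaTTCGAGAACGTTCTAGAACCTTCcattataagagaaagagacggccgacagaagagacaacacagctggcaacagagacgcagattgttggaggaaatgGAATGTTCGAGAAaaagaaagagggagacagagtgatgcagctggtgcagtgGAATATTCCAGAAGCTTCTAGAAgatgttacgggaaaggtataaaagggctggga
hsp-1 peak: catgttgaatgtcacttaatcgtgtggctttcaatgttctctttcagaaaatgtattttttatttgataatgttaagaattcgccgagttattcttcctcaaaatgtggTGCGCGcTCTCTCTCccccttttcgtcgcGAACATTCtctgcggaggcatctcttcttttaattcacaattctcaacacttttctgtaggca
hsp-3 upstream: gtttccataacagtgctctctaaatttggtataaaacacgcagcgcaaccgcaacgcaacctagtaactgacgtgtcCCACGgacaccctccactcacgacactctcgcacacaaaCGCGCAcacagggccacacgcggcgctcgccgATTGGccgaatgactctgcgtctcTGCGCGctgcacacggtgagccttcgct
hsp-4 upstream: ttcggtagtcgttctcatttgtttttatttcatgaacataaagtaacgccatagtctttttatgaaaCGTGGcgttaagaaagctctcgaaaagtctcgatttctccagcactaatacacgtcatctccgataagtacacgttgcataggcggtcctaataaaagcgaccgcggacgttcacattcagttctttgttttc
The F44E5 interval held 7 TTCNNGAA and 7 GAANNTTC matches that overlap one another in blocks. The hsp-3 stretch held 2 CGCGCA matches, 1 match to CCAAT and 1 to CCACG, while the hsp-4 stretch held a single match, to CCACG. Over 1000 bp upstream, hsp-3 held 2 matches to CGCGCA, 3 to CCAAT and 1 to CCACG, and hsp-4 held 0, 2 and 4. The letters are matches only, and no factor was measured at them.

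Peaks of the optimal list were assigned to 4 of the 8 Hsp70 genes, namely F44E5.4, F44E5.5, hsp-1 and hsp-3, against 1.87% of all protein-coding genes (374 of 19985). All 3 summits lay upstream of the gene starts, where 4 of 8 Hsp70 genes compared with 1.08% of all genes (215), and the family's gene bodies held 0 optimal peaks. Because the genes were chosen with these peaks in view, nothing is read from this count. F44E5.4 and F44E5.5 share one peak, so the 4 genes stand for 3 separate regions. Such sharing was common, since 78 of the 347 optimal peaks assigned to any gene fell in more than 1 gene window.

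The conservative list, the shorter of the pooled thresholded lists, assigned peaks to the same 4 genes, beside 1.81% of all genes (1.02% for upstream summits alone). The thresholded list of replicate 1 alone held peaks for these 4 genes too, beside 0.731% of all genes (0.445% upstream). Replicate 2 alone held a peak for F44E5.4 and F44E5.5 only, beside 0.505% of all genes (0.285% upstream). Of the 453 optimal peaks in all, 411 (90.7%) had a candidate summit within 100 bp in both replicates, and the 3 Hsp70 peaks were among them.

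**Figure D1:**
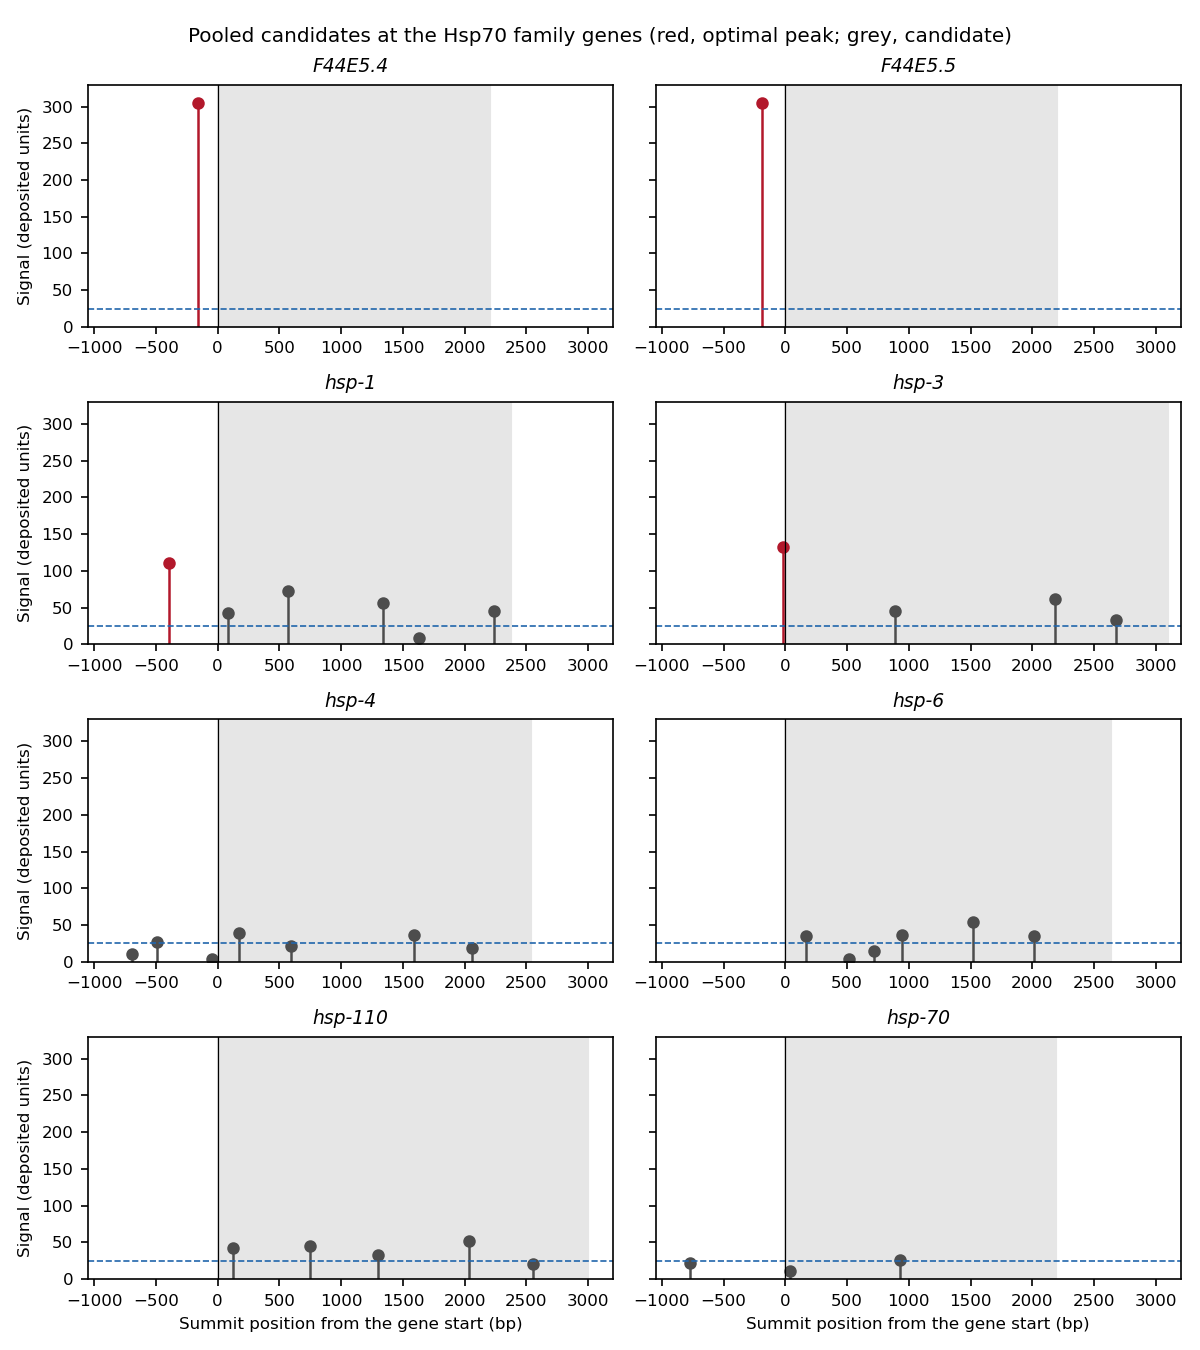
Deposited signal of each candidate of the pooled ranked list (vertical axis) against the position of its summit from the gene start (horizontal axis, bp), for the 8 Hsp70 genes; grey areas are gene bodies and the dashed line is the median of all candidates (24.9). The shared F44E5 summit reaches 305 with nothing in either gene body, the hsp-1 and hsp-3 upstream summits reach 110.5 and 133, and all candidates of hsp-4, hsp-6, hsp-110 and hsp-70 stay at or under 53.4.

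The divergent pair F44E5.4 and F44E5.5, which encode heat-inducible cytosolic Hsp70 proteins, carried the strongest peak of the family. The genes lie head to head on chromosome II, F44E5.4 at 11757107 to 11759311 on the minus strand and F44E5.5 at 11759662 to 11761861 on the plus strand, with 350 bp between their starts. The pooled peak spanned 11759434 to 11759520, only 87 bp, and its summit lay 161 bp upstream of F44E5.4 and 190 bp upstream of F44E5.5. Its signal, the value the authors' peak caller gave it, was 305, which ranked 12 of 82563 candidates and 6 of 453 optimal peaks.

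Both replicates placed a summit at nearly the same position of the F44E5 interval. In replicate 1 the signal was 176, rank 12 of 51269, with the summit 149 bp upstream of F44E5.4. In replicate 2 it was 131, rank 22 of 50405, with the summit 171 bp upstream. The signal scale may differ between lists, so ranks rather than signals are set side by side. Among all protein-coding genes ordered by their strongest candidate, the pair stood at place 5 in the pooled list, 5 in replicate 1 and 4 in replicate 2.

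The irreproducible discovery rate (IDR) scores the repeatability of a peak's rank across compared lists, and the authors' thresholded lists hold peaks at an IDR of 0.01 or less, a -log10 value of at least 2. Of the pooled ranked lists, the one whose candidates are described here holds all 431 conservative peaks at that threshold, and the other holds all 453 optimal peaks at it. In the described list 125 of the optimal peaks miss the threshold. The F44E5 peak had a -log10 IDR of 4.50 in the described list, 4.67 in the other, 4.40 in replicate 1 and 3.94 in replicate 2. Its -log10 q value was 1.74, the highest of the pooled list, which 28 candidates shared. The peaks of hsp-1 and hsp-3 had 1.29 and 1.28, which is a q value just above 0.05. The F44E5 peak was thus well inside the IDR threshold in every list.

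**Figure D2:**
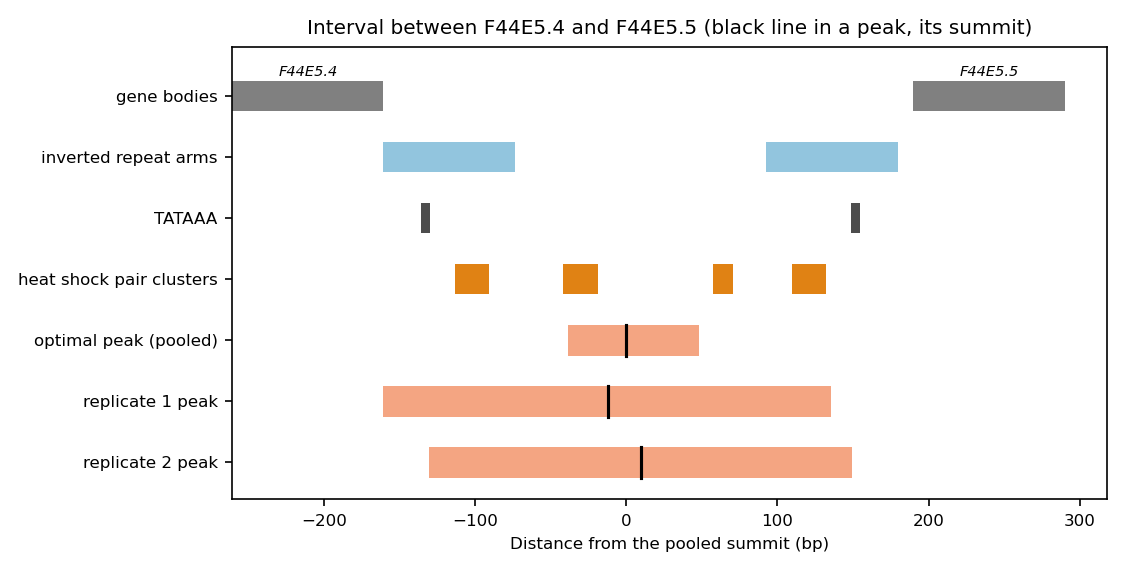
Features of the interval between F44E5.4 and F44E5.5, with distance from the pooled summit in bp on the horizontal axis and 1 feature class per line; black lines mark peak summits. The pooled peak sits between the 2 arms of an inverted repeat, and clusters of heat shock pairs lie on both sides of the summit. The repeat was searched for only within the interval, so the arms are drawn no further than the gene starts.

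The F44E5 interval has a symmetrical layout. Within its 350 bp it holds an inverted repeat whose arms, 87 bp each there, matched at 86 positions (98.9%), with 166 bp between them. Only the bases between the gene starts were searched, so the outer ends of the arms are set by that limit. One arm begins at the first searched base, next to F44E5.4, and the other ends shortly before the start of F44E5.5. How far the repeat runs on into the genes, whose coding sequences were identical over 1935 bp, was not measured. The heat shock pairs, the paired units of the site that HSF-1 is known to bind, fell into 4 clusters centred at -102, -30, 64 and 121 bp from the pooled summit. Of the 14 pairs, 4 lay in each arm and 6 between the arms. A TATAAA match lay 26 bp from the start of F44E5.4 and another 36 bp from that of F44E5.5.

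Such a density of heat shock pairs was rare among promoters. The 350 bp upstream of each start were searched on both strands for 3 alternating units, that is TTCNNGAA and GAANNTTC overlapping by 1 unit. F44E5.4 and F44E5.5 each held 10 such matches over the interval they share, hsp-110 held 2, hsp-1, hsp-6 and hsp-70 held 1 each, and hsp-3 and hsp-4 held 0. At least 1 match was found at 449 of 19973 nuclear protein-coding genes (2.25%), and the only other genes with 10 or more were C53C11.4 (11) and ZC262.7 (25). An optimal peak within 1000 bp upstream was present at 11 of the 449 genes with a match (2.45%) and at 204 of the 19524 others (1.04%). The Hsp70 genes account for 3 of these 11, while hsp-6, hsp-70 and hsp-110 had a match and no such peak. Those 3 were chosen with their peaks known, and F44E5.4 and F44E5.5 share 1 peak and 1 interval. The difference between the shares is therefore not read as a result.

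The coding sequences of F44E5.4 and F44E5.5 were identical over all 1935 bp, and neither gene body held a candidate peak in the pooled list or in either replicate. Of the 31-base words in the bodies, 98.2% in F44E5.4 and 98.1% in F44E5.5 occur elsewhere in the nuclear genome, against at most 3.16% in the bodies of the other Hsp70 genes. Among all genes with over 90% of such repeated words, 321 of 348 (92.2%) had no candidate in the body, against 4756 of 19625 others (24.2%). In bodies of 2000 to 2500 bp these shares were 18 of 19 (94.7%) and 421 of 2153 (19.6%). Whether reads could be placed in the F44E5 bodies was not tested. Within the interval, 47.1% of the words in each arm were repeated and 0% between the arms or in the pooled peak. The peaks of the replicates, which were wider, held 17.9% (replicate 1) and 8.57% (replicate 2).

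The remaining heat-inducible cytosolic gene, hsp-70, had no peak although its coding sequence was the nearest in the family to the F44E5 pair, at 80.6% identity. Its strongest candidate had a signal of 26.1 at 930 bp downstream of the start, rank 38624 of 82563. Replicate 1 held 0 candidates for hsp-70. Replicate 2 held 1, with a signal of 15.3 at 732 bp upstream and rank 28233. By its strongest candidate hsp-70 was 13962nd of 19985 genes, the lowest place in the family, and its signal lay under the 38.3 median of genes that had a candidate.

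The constitutive cytosolic gene hsp-1, which encodes the worm heat shock cognate protein, had an upstream peak. The gene lies on chromosome IV at 17278959 to 17281330, plus strand, and the peak at 17278415 to 17278718 had its summit 392 bp upstream of the start. Its pooled signal was 110.5, rank 165 of the candidates and 122 of the optimal peaks, with a -log10 IDR of 2.98 in the described pooled list and 2.95 in the other. Replicate 1 gave 62.4 (rank 185) at the same base, and replicate 2 gave 48.1 (rank 245) at 431 bp upstream.

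The replicates differed in whether the hsp-1 peak met the threshold. The -log10 IDR was 2.14 in replicate 1, where the peak stood at 130 of 167, and 1.29 in replicate 2, where it was not thresholded. A non-coding RNA gene, F26D10.23, lies 65 bp from the pooled summit, nearer than the start of hsp-1. Occupancy at that gene and at the hsp-1 promoter cannot be told apart from these peaks.

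A second hsp-1 candidate was in a coding exon, 567 bp downstream of the start, with a pooled signal of 72.0, rank 793, and a -log10 IDR of 1.99 in the described list, just short of the threshold, but of 1.29 in the list that goes with the optimal peaks. Both replicates held it, at 42.5 (rank 986) in replicate 1 and 34.7 (rank 1162) in replicate 2. Another candidate, with a signal of 56.7 at 1342 bp, lay 132 bp from the snoRNA gene F26D10.24 and was matched in replicate 1 only.

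The ER chaperone genes hsp-3 and hsp-4, both homologues of mammalian BiP, differed in their peaks. Both lie on the minus strand, hsp-3 on chromosome X at 6089028 to 6092124 and hsp-4 on chromosome II at 7350112 to 7352645, and their coding sequences were 78.1% identical. The optimal peak of hsp-3, on chromosome X at 6091987 to 6092290, had its summit 15 bp upstream of the start of the longest transcript, C15H9.6a.2, and 354 bp upstream of that of C15H9.6a.1. The signal was 133 at hsp-3, and the candidate nearest to the start of hsp-4, 46 bp upstream, had 3.84.

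The hsp-3 peak was held by both replicates at nearly the same position and at similar ranks. Replicate 1 gave 66.4 (rank 154, 16 bp upstream) with a -log10 IDR of 2.27. Replicate 2 gave 57.7 (rank 134, 2 bp upstream) with a -log10 IDR of 1.94, just short of the threshold. The pooled rank was 105 of the candidates and 69 of the optimal peaks, with a -log10 IDR of 3.27 in the described pooled list and 3.30 in the other. The replicate that lacked the thresholded peak thus ranked it higher among its own candidates.

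For hsp-4, which is strongly induced by ER stress and widely used to report it, all 7 candidates were weak. The strongest had 39.1 at 173 bp downstream of the start, rank 14261, with 30.3 (rank 5772) in replicate 1 and 13.0 (rank 35498) in replicate 2. The strongest upstream candidate had 26.8, at 494 bp. The strongest value sits close to the 38.3 median over genes, and the replicates put their strongest hsp-4 candidates at different places in the gene, at 171 bp in replicate 1 and 1555 bp in replicate 2.

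The mitochondrial Hsp70 gene hsp-6, the usual reporter of mitochondrial stress, lies on chromosome V at 4824124 to 4826760, minus strand, and had no optimal peak. Its strongest candidate had a pooled signal of 53.4 in a coding exon, 1520 bp downstream of the start, rank 3688. Replicate 2 ranked this position 550 with a signal of 39.9, whereas replicate 1 ranked it 45558 with 10.2. Only replicate 2 thus placed the position high among its candidates.

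The Hsp110 gene hsp-110 (chromosome III, 8443910 to 8446909, minus strand), which encodes a distant relative that acts as a nucleotide exchange factor, had no optimal peak either. Its strongest candidate had 51.4 at 2036 bp, rank 4471, with 32.7 (rank 1695) in replicate 2. The nearest candidate of replicate 1, at 1933 bp, lay just outside the 100 bp used for matching and had 18.4 (rank 27111). At 126 bp the pooled signal was 42.2, replicate 2 had 35.1 (rank 1092), and replicate 1 had none within 100 bp. The candidates at 749 and 1301 bp went the other way, with ranks of 12311 in replicate 1 and 25140 in replicate 2 at 749 bp, and a match in replicate 1 only (rank 8034) at 1301 bp. No upstream candidate was listed for hsp-110 or hsp-6 in the pooled list.

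**Figure D3:**
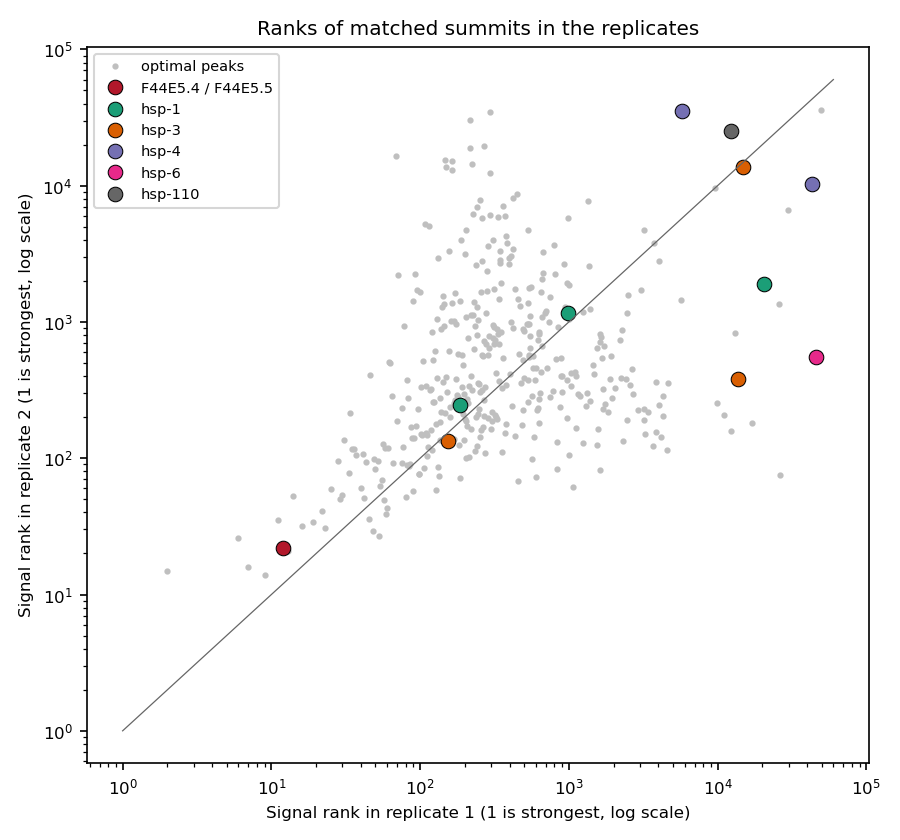
Signal rank in replicate 1 (horizontal, log scale) against replicate 2 (vertical, log scale) for optimal peaks (grey) and for the Hsp70 candidates matched within 100 bp in both replicates (coloured); rank 1 is the strongest and the line marks equal ranks. The F44E5 summit lies at ranks 12 and 22, the hsp-1 and hsp-3 peaks near the line, and the hsp-6 candidate far below it.

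Over the family, 11 of the 32 candidates were matched in both replicates, 5 in replicate 1 only, 7 in replicate 2 only and 9 in neither. Over all candidates of the pooled list 19.1% were matched in both. The number of candidates per gene ran from 1 at F44E5.4 and F44E5.5 to 7 at hsp-4, against a median of 3 over all protein-coding genes. Strength did not follow number, since the pair with the single candidate had the highest signal and hsp-4 one of the lowest. The bodies of that pair, however, held 98.2% and 98.1% repeated 31-base words. Among genes with over 90% of such words, 92.2% had no candidate in the body. The number at the pair may therefore not be comparable with that at the other genes.

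**Figure D4:**
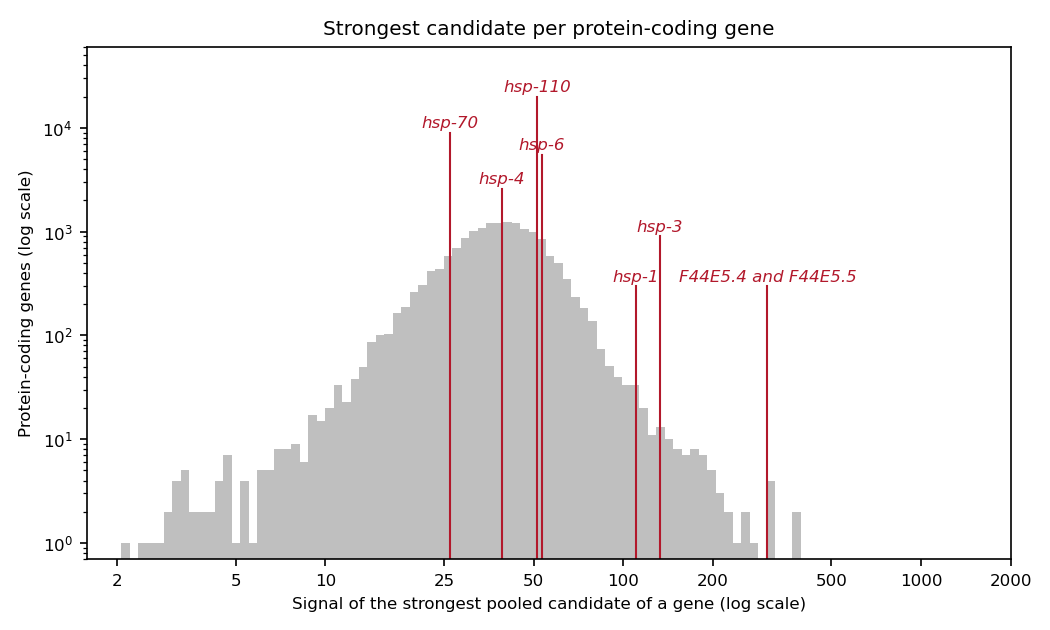
Number of protein-coding genes (vertical, log scale) by the signal of their strongest pooled candidate (horizontal, log scale), with the 8 Hsp70 genes as red lines. F44E5.4 and F44E5.5 (305), hsp-3 (133) and hsp-1 (110.5) lie in the upper tail, hsp-6 (53.4) and hsp-110 (51.4) above the 38.3 median, hsp-4 (39.1) near it and hsp-70 (26.1) under it.

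By strongest candidate, hsp-3 stood 70th and hsp-1 116th of all protein-coding genes, hsp-6 2689th, hsp-110 3200th and hsp-4 7917th. The median over the 8 Hsp70 genes was 81.9, against 38.3 over the 16642 genes with a candidate. With the peak that F44E5.4 and F44E5.5 share counted 1 time, the median over the 7 separate candidates was 53.4. The order hsp-3 before hsp-1 was the same in both replicates. The order of hsp-6 and hsp-110 was not, because hsp-110 was ahead in replicate 1 (28.0 against 23.4) and hsp-6 in replicate 2 (39.9 against 35.1).

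The sequence around the 3 summits differed within the family. GC content within 100 bp of the summit was 62.7% at hsp-3, above 97.6% of optimal peaks, 47.8% at the F44E5 pair and 39.3% at hsp-1, above only 7.95% of optimal peaks. Optimal peaks averaged 49.1% ± 7.22 (SD over 453 peaks) and all candidates 40.1% ± 7.11. The hsp-1 peak was thus near the level of candidates in general, and the hsp-3 peak near the top of either set. None of the 3 windows held a repeated 31-base word.

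Motif matches within 100 bp of the summits also differed. GAGAGA was the only motif found at all 3, and it was present in 27.4% of optimal peaks against 11.7% of candidates. CGCGCA was found 2 times at hsp-3 and 1 time at hsp-1 but not at F44E5, and was present in 18.1% of optimal peaks against 4% of candidates. TTCNNGAA was found 3 times at F44E5 alone (8.17% of optimal peaks, 12.7% of candidates), and GAANNTTC 4 times there and 1 time at hsp-1 (11.5% and 13.6%). Matches of 3 alternating units were present at F44E5 alone, against 2.43% of optimal peaks and 1.33% of candidates.

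The ER stress element known from mammals consists of CCAAT and, 9 bases on, CCACG. The whole element was matched at none of the 3 peaks, although CCAAT and CCACG each had 1 match at hsp-3 when searched alone. The CCACG in capitals in the printed hsp-3 stretch lies more than 100 bp from the summit, so the match counted here is a different one. The whole element was found in 0 of the 453 optimal peaks and in 0.0182% of candidates. CCAAT was present in 28.7% of optimal peaks and 38.2% of candidates, and CCACG in 30.9% and 20.3%. TGACGTGG, a site of the kind bound by XBP-1, was in none of the 3 windows and was found in 0.221% of optimal peaks and 0.912% of candidates. TATAAA was in none of them, since the matches beside the F44E5 starts lie outside this window, and in 10.2% and 14.4%.

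Genes that work with or beside the Hsp70 family were taken from 6 lists of 79 annotated genes, of which 7 (8.86%) had an optimal peak, beside 1.87% of all genes. Among J-domain genes 2 of 29 had one: dnj-13 (signal 146, 214 bp upstream), thresholded in both replicates, and dnj-28 (114, 146 bp upstream). Among 6 cofactor genes it was bag-1 alone (123, 166 bp upstream), whose mammalian homologues promote nucleotide release from Hsp70.

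Among 13 Hsp90 and chaperonin genes 4 had a peak. The peak of hsp-90, the cytosolic Hsp90 that receives clients from Hsp70, was the strongest of these 7 genes' peaks, with a signal of 191 at 850 bp downstream of its start in both replicates' thresholded lists. The cct-8 peak, at a subunit gene of the cytosolic chaperonin, had 137. The mitochondrial chaperonin gene hsp-60 and its neighbour Y22D7AL.10, which encodes a chaperonin of the smaller kind, shared a peak of 106. Replicate 2 alone left only hsp-90 and dnj-13 of the 7.

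No peak was found at the 16 small heat shock protein genes, at the 4 other Hsp70-related genes or at the 11 stress regulators. The strongest candidates were 52.9 at hsp-43, 62.5 at T24H7.2 and 75 at atfs-1. A match of 3 alternating units within 350 bp upstream was found at 6 of the 16, all of them hsp-16 genes, which are heat-inducible like the F44E5 pair, with at most 2 matches each. The 4 annotated copies named hsp-16.1 and hsp-16.48 held 0 candidates, and their bodies consisted wholly of repeated 31-base words. Whether reads could be placed there was not tested. The genes hsp-12.2 and hsp-12.6 also held 0 candidates, with 0% repeated words in their bodies. Among the regulators, xbp-1 reached 60.1 and hsf-1 53.4.

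The 3 protein-coding genes most like F44E5.4 in the ranks of their strongest candidate over the 2 replicates were rpa-2, pxn-1 and rpl-3. The rank distance, on the log10 scale, was 0.04 for rpa-2, which encodes a subunit of the single-strand DNA binding complex RPA, and 0.205 for both the peroxidasin gene pxn-1 and the ribosomal protein gene rpl-3. Signals at rpa-2 were 311 pooled, 173 in replicate 1 and 132 in replicate 2. The likeness rests on 2 replicates of 1 condition.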

How the data were processed

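ChIP-seq of SEA-2 was represented by 8 peak lists that the authors deposited on ce11 (WBcel235), with a ranked and a thresholded list for each of the 2 replicates and, for the pooled replicates, 2 ranked lists, an optimal and a conservative list. Signal is the value per peak from the authors' peak caller, with no normalisation stated. The authors also deposited a -log10 q value and, in ranked lists, a score, the -log10 global IDR. The ranked lists' 8 columns of signals from the lists that IDR compared name no sample and were not used. No aligner, peak caller, version or read depth is given in the sources used here, so depth is unknown. Ranked lists include candidates absent from the thresholded lists although at an IDR of 0.01 or less (70 of 523 for the optimal list, 63 of 494 for the conservative list).

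Summits were assigned to protein-coding genes of Ensembl release 115 if in the body or up to 1000 bp upstream. A summit in another list was matched within 100 bp. Sequence features were counted within 100 bp of a summit on both strands, and repeated words are 31-mers found more than once in the nuclear genome. Coding sequences were aligned globally with Biopython 1.88. The assignment of summits was tested on simulated data, where all 156 planted peaks were recovered. Python 3.11.15, pandas 2.3.3, numpy 2.4.6 and matplotlib 3.10.9 were used.

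All samples form 1 group, so no comparison between groups was made. The genes, the lists and the motifs were chosen with earlier results of these data known, and no p-value was computed. The named genes were the 8 members, genes whose start lay nearer to a member's peak, up to 5 genes per list by peak signal and the 3 genes most like the member with the highest signal. Other names (C53C11.4, ZC262.7, hsp-43, T24H7.2, atfs-1, xbp-1, hsf-1, hsp-12.2, hsp-12.6, hsp-16.1 and hsp-16.48) were chosen after their values were seen. The listed names hsp-16.11, hsp-16.49, daf-21, dnj-6 and hsf-2 had no entry under that name in the annotation. Alternatives were the other lists, each replicate alone, other windows, any base of the peak, strong peaks only and ranking by q value.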

Additional observations from a re-analysis of the deposited data

How the results depend on the processing

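The 4 Hsp70 genes with a peak were the same genes with the conservative list, without replicate 2, with 500 or 2000 bp upstream, with any base of the peak, with only the stronger optimal peaks (signal not under the list's median) and with all candidates at an IDR of 0.01. Without one replicate the count was 2 to 4, and without replicate 1 only F44E5.4 and F44E5.5 were left. Over all protein-coding genes the count of 374 became 101 to 146 without a replicate, 197 with the stronger peaks, and 308 to 456 with the others. The 7 other chaperone genes became 2 to 8 without a replicate, and 6 or 7 otherwise. Strongest candidates were compared by rank as a percent of their own list. For this, hsp-70, which had no candidate in replicate 1, was left out, and the shared F44E5 peak was counted 1 time. Each replicate alone was among the settings, so the changes and the spread between replicates share values. The percent moved by more than the SD of the 2 replicate values in 9 of 24 comparisons. It also depends on list length, which was 82563 candidates pooled, 51269 in replicate 1 and 50405 in replicate 2. The F44E5 peak, at rank 12 both pooled and in replicate 1, went from 0.0145% to 0.0234%. Without replicate 1, hsp-3 stood in the top 0.266% and hsp-1 in the top 0.486% of candidates, against 0.127% and 0.200% pooled. By rank these were 134 and 245 in replicate 2, against 105 and 165 in the longer pooled list. Ranking by q value put hsp-3 at 0.452% and hsp-1 at 0.432%, which turned their order round. Without replicate 2, hsp-6 stood in the top 29.7%, against 4.47% pooled, and hsp-110 in the top 15.7%, against 5.42%. For hsp-70 no value without replicate 2 could be had. GC content at the 3 separate peaks was also taken within 50 bp of the summit and over the whole peak. It changed by no more than the SD over optimal peaks (7.22). The causes of the changes in rank were not tested. No paired analysis was possible because there is 1 group. Depth limits are unknown. A gene without a peak may still be occupied, since the lists start above a minimum and 3343 protein-coding genes had no candidate at all.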

Other observations

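Among the 449 genes with 3 alternating heat shock units within 350 bp upstream, those with an optimal peak within 1000 bp upstream were hsp-1, F44E5.4, F44E5.5, bag-1, Y22D7AL.10, rps-26, W06H8.6, egg-5, W04C9.4, tmem-107 and R107.5. All 11 were named after their values were seen.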
